A study of Mus musculus with 7 samples.

Results

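Accessible chromatin was followed around 10 endothelial identity genes: Kdr, Flt1, Tek, Tie1, Eng, Cdh5, Pecam1, Emcn, Egfl7 and Erg. A region belonged to them when the summit of its peak lay in or within 50 kb of the gene's span and no other protein-coding gene span was nearer. By this rule 530 of the 580456 regions in the 4 peak lists were members. They comprised 148 of 140286 regions in the untreated list, 133 of 164684 at day 1, 149 of 145337 at day 7 and 100 of 130149 at day 28. Overlapping regions of the lists merged into 227 distinct regions of 223972. The genes were chosen by a measured value, the high share of their untreated regions that the day 28 list lacked, so those losses are described here and not tested.

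The data are ATAC-seq, in which the Tn5 transposase cuts and tags open DNA, from pancreatic epithelial cells of wild-type C57BL/6J mice. Caerulein, a cholecystokinin analogue that provokes a pancreatitis which later resolves, had been given to all groups but the untreated one, and cells were taken at day 1, day 7 or day 28. Each of the 4 groups is 1 library, and no source used here gives the animals' age or says whether animals were pooled. The other 3 samples of the series, DCLK1-positive cells of Dclk1-DTR-ZsGreen mice that were untreated or at day 1 or day 28, were not analysed here.

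Endothelial cells line blood vessels, and in the pancreas their capillaries surround acini and islets. VEGF acts on them through Kdr and is held back by the decoy receptor Flt1, while angiopoietins act through Tek with its partner Tie1, and Eng assists TGF-beta family receptors. Cdh5 and Pecam1 join neighbouring cells, Emcn coats their surface, Egfl7 is secreted and carries a microRNA gene in its body, and Erg is an ETS-family transcription factor that helps keep endothelial genes active. The label on the samples is epithelial, and each of the 10 endothelial genes had at least 1 region in every list. That is not particular to them. Each of 14 other endothelial transcription factors, 10 mural cell genes and 9 duct and general epithelial genes also had a region in every list. Some leukocyte, lymphatic, fibroblast and acinar genes lacked one in at least 1 list. In sorted or purified bulk cells, a smaller share of endothelial cells and a less open site in each of them cannot be told apart.

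The starts of Egfl7 differed in course among themselves, and the 250 bases before its 3 RefSeq starts are shown with those of Eng and Tie1, which had other courses. Sequences are from RefSeq on GRCm38.p6, 5′ to 3′ on the gene's strand, and capitals mark GGAA or its complement TTCC, the core bound by ETS factors. The windows are chr2:26580833-26581082, chr2:26583615-26583864 and chr2:26586386-26586635 for Egfl7, chr2:32646345-32646594 for Eng, all on the plus strand, and chr4:118489850-118490099 on the minus strand for Tie1.
Egfl7 start 1: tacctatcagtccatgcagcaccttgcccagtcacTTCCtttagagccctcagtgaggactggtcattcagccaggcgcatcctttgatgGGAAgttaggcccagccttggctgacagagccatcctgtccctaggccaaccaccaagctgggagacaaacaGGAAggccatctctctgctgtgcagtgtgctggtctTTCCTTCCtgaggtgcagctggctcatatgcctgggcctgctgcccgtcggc
Egfl7 start 2: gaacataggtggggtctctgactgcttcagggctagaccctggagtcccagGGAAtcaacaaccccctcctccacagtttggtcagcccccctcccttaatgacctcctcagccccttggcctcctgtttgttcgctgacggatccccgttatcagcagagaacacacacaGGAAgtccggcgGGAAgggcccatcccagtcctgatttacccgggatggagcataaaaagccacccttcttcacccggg
Egfl7 start 3: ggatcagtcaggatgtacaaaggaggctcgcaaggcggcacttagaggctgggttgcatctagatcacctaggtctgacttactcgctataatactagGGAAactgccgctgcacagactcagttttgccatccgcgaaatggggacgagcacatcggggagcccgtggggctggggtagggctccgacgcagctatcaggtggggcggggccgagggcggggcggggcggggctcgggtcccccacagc
Eng start 1: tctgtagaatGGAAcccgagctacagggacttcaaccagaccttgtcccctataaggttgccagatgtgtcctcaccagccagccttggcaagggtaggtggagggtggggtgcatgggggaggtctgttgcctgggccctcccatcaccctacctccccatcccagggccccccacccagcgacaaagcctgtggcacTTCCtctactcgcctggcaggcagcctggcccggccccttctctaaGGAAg
Tie1 start 1: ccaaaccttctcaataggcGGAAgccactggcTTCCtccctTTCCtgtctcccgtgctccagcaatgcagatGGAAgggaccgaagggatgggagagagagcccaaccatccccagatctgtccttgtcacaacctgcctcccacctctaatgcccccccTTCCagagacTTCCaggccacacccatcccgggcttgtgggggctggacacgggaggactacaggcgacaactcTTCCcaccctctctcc
The windows before the Egfl7 starts 1 and 2 overlapped a region in the untreated list only, with the authors' fold enrichment at the summit of 4.12 and 7.91. In the window of start 3 a region was present in every list, at 9.39-fold in the untreated list and 20.2, 17.2 and 18.2-fold at days 1, 7 and 28. The Eng window was likewise occupied throughout, at 7.41, 15.3, 15.04 and 10.2-fold. At Tie1 a region of 8.90-fold was absent at day 1 and present again at day 7 with 5.37-fold and at day 28 with 4.26-fold. Fold enrichment is the pileup of fragments over the library's background and ranks regions only within a list.

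These 5 windows differ in CpG content as well as in course. The Egfl7 starts 1, 2 and 3 hold 3, 7 and 17 CpG dinucleotides, Eng holds 4 and Tie1 holds 6, against a median of 6 over 32585 mouse promoter windows. Among promoter windows of all genes that were open in the untreated list, 16.6% of those with under 5 CpG, 4.89% of those with 5 to 14 and 0.904% of those with 15 or more had no region at day 28. Eng, with few CpG, stayed open in all lists, and so did Tek with 2. The core GGAA was found in 11 of the 12 matched windows of 8 genes and in 93.4% of all promoters, so most promoters of any gene hold it. The longer AGGAAG, which contains GGAA, was in 7 of 12 windows and in 29.6% of all promoters. Further searches on both strands found the GATA-factor motif AGATAA in 1 of 12 windows against 10.02% of all promoters, the SOX motif ACAAT in 3 against 27.3% and the E-box CANNTG in 8 against 66.3%. The CCAAT box (letters CCAAT) was in 2 of 12 against 34.0%, and the TATA box (letters TATAAA) in 2 against 12.4%. The FOX motif TGTTTAC and the AP-1 motif TGANTCA were in 0 of 12 windows and in 3.18% and 6.78% of all promoters. Each match describes letters only.

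An untreated region is called lost when no peak of the later list overlaps it by at least 1 bp, and a later region is called gained when it overlaps no untreated peak. At day 1, 72 of the 148 untreated member regions were lost, which is 48.6% with an exact 95% interval of 40.4 to 57.0, against 37.1% of all untreated regions with a gene within 50 kb. At day 7, 60 were lost, 40.5% with an interval of 32.6 to 48.9, against 31.8%. At day 28, 75 were lost, 50.7% with an interval of 42.3 to 59.0, against 26.7%. The last of these shares is the one the genes were chosen for, and nothing is read from it. The same 148 regions are scored at each time, and 47 of those lost at day 28 were also absent at days 1 and 7, so the shares at days 1 and 7 are not independent of the choice either. Intervals cover counting error only, and regions of 1 gene are not independent.

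Gains followed the background more closely at days 1 and 28, and stood above it at day 7. At day 1, 67 of 133 member regions were gained, 50.4% against 49.9% of all linked regions, and at day 28, 24 of 100 were gained, 24% against 23.0%. At day 7, 62 of 149 were gained, 41.6% against 33.9%. The untreated library had the lowest enrichment. With a common floor on the scaled level defined below, 34 of 88 day 1 regions were gained, 38.6% against 39.1% of all linked regions. Under that floor 82 of 148 untreated regions were lost at day 1, 55.4% against 44.7%. Without it the counts were 67 gains and 72 losses.

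**Figure D1:**
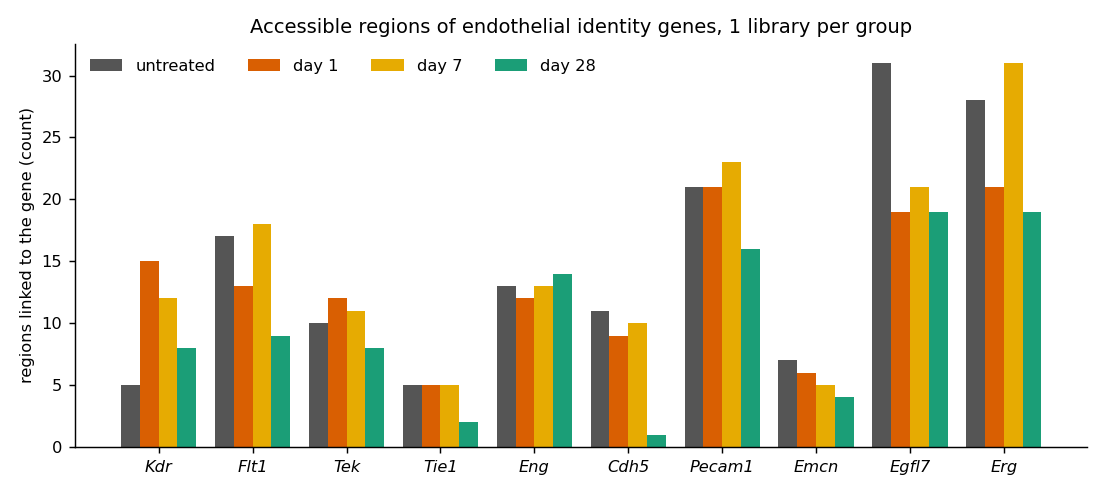
Number of regions linked to each endothelial gene (vertical axis, count) in the 4 lists, 1 bar per list and library, with no error bars because each group is 1 library. Cdh5 dropped from 11 untreated regions to 1 at day 28, Kdr had 5 untreated and 15 at day 1, and Eng kept between 12 and 14 in every list.

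Other cell types' genes moved in the same lists. At day 28, 93 of the 235 untreated regions of 21 other endothelial receptor, junction and surface genes (39.6%) were lost, and 84 of the 293 of 14 other endothelial transcription factors (28.7%), against 26.7% of all linked regions. At day 1 these lists had lost 85 (36.2%) and 107 (36.5%) against 37.1%, and at day 7 91 (38.7%) and 102 (34.8%) against 31.8%. The shares at day 28 were 42.3% for 10 leukocyte genes (11 of 26), 25.5% for 10 mural cell genes (27 of 106), 10.98% for 7 fibroblast genes (9 of 82), 9.73% for 8 acinar genes (11 of 113) and 22.1% for 9 duct and general epithelial genes (33 of 149). At day 1 the order differed, with 95 of 113 acinar, 91 of 149 duct and epithelial, 10 of 26 leukocyte, 20 of 106 mural and 4 of 82 fibroblast regions lost. At day 7 the losses were 72 acinar, 54 duct and epithelial, 11 leukocyte, 22 mural and 3 fibroblast regions. The total of regions near leukocyte genes ran 26, 26, 23 and 20 through the 4 lists, with no region at 3, 4, 2 and 3 of the 10 genes. For mural genes the totals were 106, 118, 123 and 99, for fibroblast genes 82, 164, 121 and 96, for acinar genes 113, 31, 73 and 127, and for duct and epithelial genes 149, 90, 130 and 134. Cd52 and Cd53 of the leukocyte list had no region in any list, the fibroblast gene Lum had none in the untreated list, and 2 acinar genes had none at day 1. The part of these cells in the endothelial result was not tested.

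Single genes of the broader endothelial lists ranged widely at day 28, and those named here were chosen after their values were seen, from both ends. Cldn5, a tight junction protein, had 7 of 10 untreated regions lost and the apelin receptor Aplnr 7 of 11, whereas Cd34, a surface sialomucin, had 2 of 16 and the VEGF co-receptor Nrp1 6 of 32. Fli1 and Sox18, transcription factors of endothelial cells, had 9 of 13 and 4 of 5, whereas Lmo2 and Tal1, transcriptional regulators of blood and endothelial development, had 2 of 12 and 1 of 7. Of the 21 receptor and surface genes 18 lay above the share over all linked regions, and of the 14 transcription factors 5 did. In the other lists, genes with at least 5 untreated regions and none lost at day 28 were Col1a2 (14 regions), Twist2 (15), Cel (9), Ctrb1 (5) and Krt18 (15). Other genes of these lists did lose regions, such as Sox9 with 8 of 18 and Krt19 with 6 of 20.

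**Figure D2:**
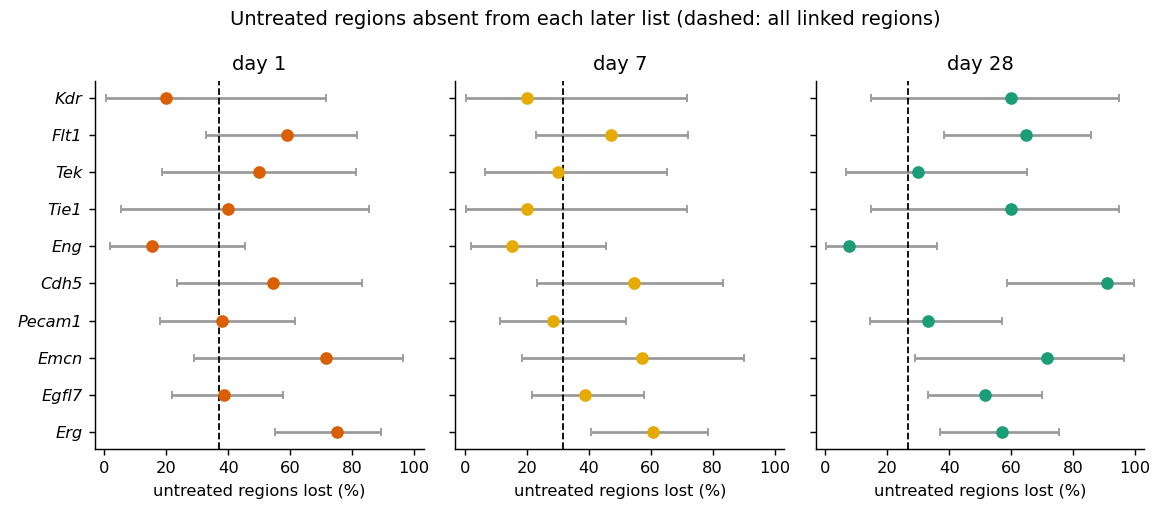
Share of each endothelial gene's untreated regions absent from the later list (horizontal axis, %) at days 1, 7 and 28, with exact 95% intervals as bars and the share over all linked regions as a dashed line. At day 28 the points of 9 of the 10 genes lie right of the dashed line and that of Eng lies left of it, while at day 7 5 genes lie on each side.

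Each of the 10 genes had losses at each time, and Erg had the most at day 1 and day 7. Cdh5 had 6, 6 and 10 of 11 untreated regions lost at days 1, 7 and 28, Emcn 5, 4 and 5 of 7, and Flt1 10, 8 and 11 of 17. Erg had 21, 17 and 16 of 28 lost, and without Erg the share over the other 9 genes was 42.5% at day 1 and 35.8% at day 7, against 37.1% and 31.8% of all linked regions. Egfl7 had 12, 12 and 16 of 31 lost, Kdr 1, 1 and 3 of 5, and Tie1 2, 1 and 3 of 5. Pecam1 with 8, 6 and 7 of 21 stayed near to the background. Tek had 5, 3 and 3 of 10, near to it at days 7 and 28 but above it at day 1 (50%), and Eng had 2, 2 and 1 of 13. By role, at day 28 the junction and surface genes had 22 of 39 lost (56.4%) and the VEGF receptors 14 of 22 (63.6%). Egfl7 had 16 of 31 (51.6%), Erg 16 of 28 (57.1%) and the angiopoietin receptor pair 6 of 15 (40%), against 26.7% of all linked regions. The counts per gene are small, and no gene was tested.

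Regions that were lost at day 28 were the weaker ones, among the members as among all linked regions. Over all linked regions the median fold and width were 3.62 and 178 bp for lost regions and 6.26 and 405 bp for kept ones. In the untreated list the 75 lost member regions had a median fold of 3.95 (2.80 to 8.07) and a median width of 205 bp. The 73 kept member regions had 7.41 (3.13 to 31.1) and 506 bp. The summit pileup of the lost member regions was 16 to 48 fragments with a median of 23, and that of the kept ones had a median of 44. All 22 member regions with an untreated fold of at least 9.39 were present at day 28, so 0 of 22 were lost, and a count of 0 allows up to 13.6%. Among all linked regions of that strength 0.226% were lost.

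Within the weaker classes the members' share was above the background too. Below a fold of 3.62, 23 of 28 member regions were lost (82.1%) against 60.6% of all linked regions in the class. From 3.62 to 4.94 it was 39 of 50 (78%) against 40.0%, and from 4.94 to 9.39 it was 13 of 48 (27.1%) against 9.22%. These classes split the contrast on which the genes were chosen and describe it only.

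At days 1 and 7 the same untreated regions were scored, so these shares are not independent of the choice. From 3.62 to 4.94, 36 of 50 member regions (72%) were lost at day 1 against 48.0% of all linked regions in the class, and 38 (76%) at day 7 against 45.9%. Below 3.62 the counts were 16 of 28 (57.1%) against 57.3% at day 1 and 14 (50%) against 60.3% at day 7. From 4.94 to 9.39 they were 17 of 48 (35.4%) against 31.6% and 8 (16.7%) against 20.9%, and above 9.39 they were 3 of 22 (13.6%) against 13.1% and 0 against 2.61%. The members' share stood more than 20 percentage points above that of all linked regions in the class from 3.62 to 4.94 and close to it or below it in the others.

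**Figure D3:**
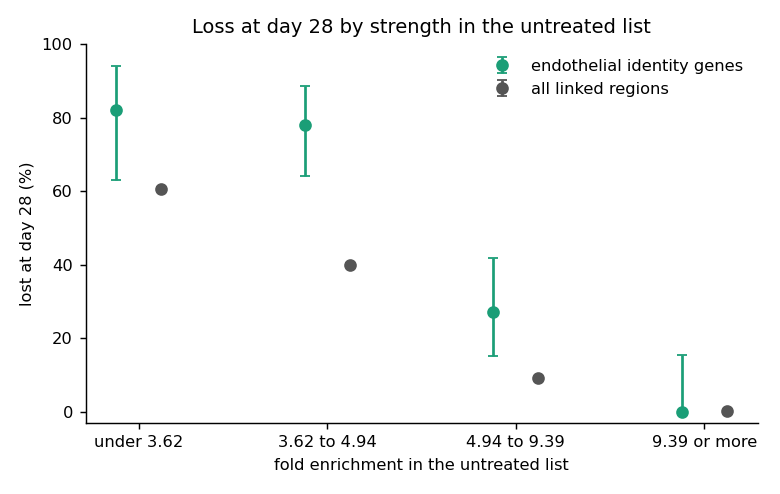
Share of untreated regions lost at day 28 (vertical axis, %) by fold enrichment in the untreated list, for the endothelial genes and for all linked regions, with exact 95% intervals. Loss runs from 82.1% in the weakest class to 0 of 22 in the strongest for the endothelial genes.

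Position made less difference than strength to the members' losses at day 28. Of 16 member regions with a summit within 1 kb of a gene end 7 were lost at day 28, against 14.7% of all such regions. Inside the genes 38 of 69 were lost (55.1%) against 29.0%, and outside 30 of 63 (47.6%) against 28.7%. At day 1 the counts in these places were 4 of 16 against 17.3%, 40 of 69 (57.97%) against 41.7% and 28 of 63 (44.4%) against 38.9%, and at day 7 they were 5 of 16 against 15.5%, 35 of 69 (50.7%) against 36.2% and 20 of 63 (31.7%) against 32.1%. Regions inside the genes were thus above the background at each time, and those outside lay near it at day 7. At the edge of the rule, the outermost regions taken in were those of Emcn at 47732 bp (day 7, 10.7-fold) and 47647 bp (day 1, 11.97-fold), and the nearest left out were those of Erg at 50169 bp (day 28, 4.54-fold) and 50186 bp (untreated, 4.94-fold), followed by a Cdh5 region at 50618 bp (day 28, 5.39-fold).

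Of the 75 regions lost at day 28, 47 (62.7%) were already absent at days 1 and 7, against 61.5% of all linked regions lost at day 28. A further 19 (25.3%) were present at both times against 20.8%, 5 (6.67%) only at day 7 against 6.04%, and 4 (5.33%) only at day 1 against 11.6%. The main split was thus close to that of all linked losses. Seen from the untreated list, 71 regions were present at both day 1 and day 7, and 19 of these (26.8%) were absent at day 28 against 9.60% over all linked regions. The share that returned was below the background. Of 55 regions absent at days 1 and 7, 8 (14.5%) were present at day 28 against 38.8% of all, and of 72 absent at day 1, 20 (27.8%) were present at day 28 against 51.4%. These shares include the day 28 list by which the genes were chosen.

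The merged regions show the same courses without counting a site more than once. Of the 227 merged member regions 47 (20.7%) were present in the untreated list alone, against 10.7% of all linked merged regions, and 44 (19.4%) were in all lists, against 28.0%. A further 33 (14.5%) were present at day 1 alone against 21.9%, 24 (10.6%) at days 1 and 7 against 8.60%, and 13 (5.73%) in every list but day 28 against 2.31%. Erg had 13 of the regions seen in the untreated list alone, Egfl7 9 and Flt1 8. These patterns include the day 28 list by which the genes were chosen, so they restate those losses in part and are only described.

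Levels in the 44 regions that all lists held were compared on a scale made for that purpose. The scaled level is fold minus 1, divided by the median of fold minus 1 in that library's regions shared by all lists, which was 7.40, 16.6, 15.1 and 11.5. The median ratio to the untreated level was 0.708 at day 1 (0.690 over all linked shared regions), 0.734 at day 7 (0.829) and 0.814 at day 28 (0.963). At day 28 the quartiles were 0.578 and 1.03, and 30 of the 44 regions had a ratio below 1 and 14 above it, beside 30135 of 54039 below 1 over all linked shared regions. The day 28 ratios draw on the untreated and day 28 lists by which the genes were chosen, so they are only described. The lost regions had scaled levels of 0.243 to 0.955 in the untreated list. The lowest scaled level of the untreated list, 0.199, lies above that of the day 28 list, 0.160. All 75 lost regions lay above the day 28 value, as any untreated region must, so nothing is read from it.

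Kdr, the main signalling receptor for VEGF (chr5:75932827-75979072), was the gene whose number of regions grew most from the untreated list to day 1. It had 5, 15, 12 and 8 regions in the 4 lists, and 11, 8 and 6 of those at days 1, 7 and 28 were gained. Its start region was present throughout, with scaled levels of 1.02, 1.03, 0.751 and 0.506. Upstream of the start, 3 of the 5 strongest member regions gained at day 1 lay 8763, 27413 and 28848 bp from the gene.

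Those 3 Kdr regions had no untreated peak. The region at chr5:76006054-76006872 had a scaled level of 2.36 at day 1, 1.28 at day 7 and 0.382 at day 28. At chr5:76007476-76008824 the levels were 2.2, 1.34 and 0.259, and at chr5:75987373-75988182 they were 1.86, 0.947 and 0.284. All 3 were thus highest at day 1, which their choice by strength at day 1 favours, and still held a peak at day 28. Between them chr5:75990135-75990913, 11353 bp upstream, had levels of 0.377 in the untreated list, 4.36 at day 1 and 1.68 at day 7, and no peak at day 28. The strongest Kdr region lost at day 28, chr5:75922744-75923059 beyond the other end of the gene, ran from 0.599 to 0.858 and 0.609 before its absence. The 2 strongest gains of day 28 included a Kdr region inside the gene, chr5:75939964-75940268, with a fold of 5.68, where peaks of days 1 and 7 were also present.

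**Figure D4:**
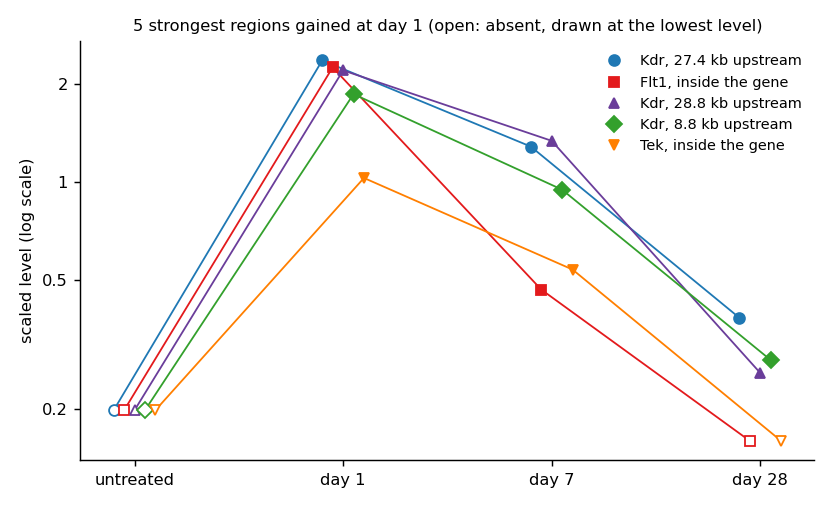
Scaled level (vertical axis, log scale) in the 4 lists of the 5 strongest endothelial gene regions gained at day 1, with open symbols where the list held no peak, drawn at that list's lowest level. All 5 are highest at day 1, which follows in part from their choice as strong day 1 regions without an untreated peak. The 3 of Kdr keep a peak at day 28 whereas those of Flt1 and Tek have none.

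Flt1, the decoy receptor for VEGF (chr5:147561604-147726438), had 17, 13, 18 and 9 regions and a start region in every list, with scaled levels of 0.866, 1.38, 1.34 and 0.506. Its strongest gain was inside the gene at chr5:147707406-147707921, with 2.25 at day 1, 0.467 at day 7 and no peak at day 28. Upstream, 21772 bp from the start, chr5:147747920-147748954 had 1.04, 3.69, 1.39 and 0.580. This site, chosen after its values were seen, was highest at day 1, like the gains upstream of Kdr that were chosen by strength at day 1. The strongest region lost at day 28, chr5:147752986-147753361, had 0.666, 0.158 and 0.218 in the first 3 lists. The strongest region kept, chr5:147751582-147752110, had 1.13, 0.432, 0.485 and 0.308. One of the strongest gains of day 28, chr5:147598979-147599200 at 5.68-fold, was in no other list.

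**Figure D5:**
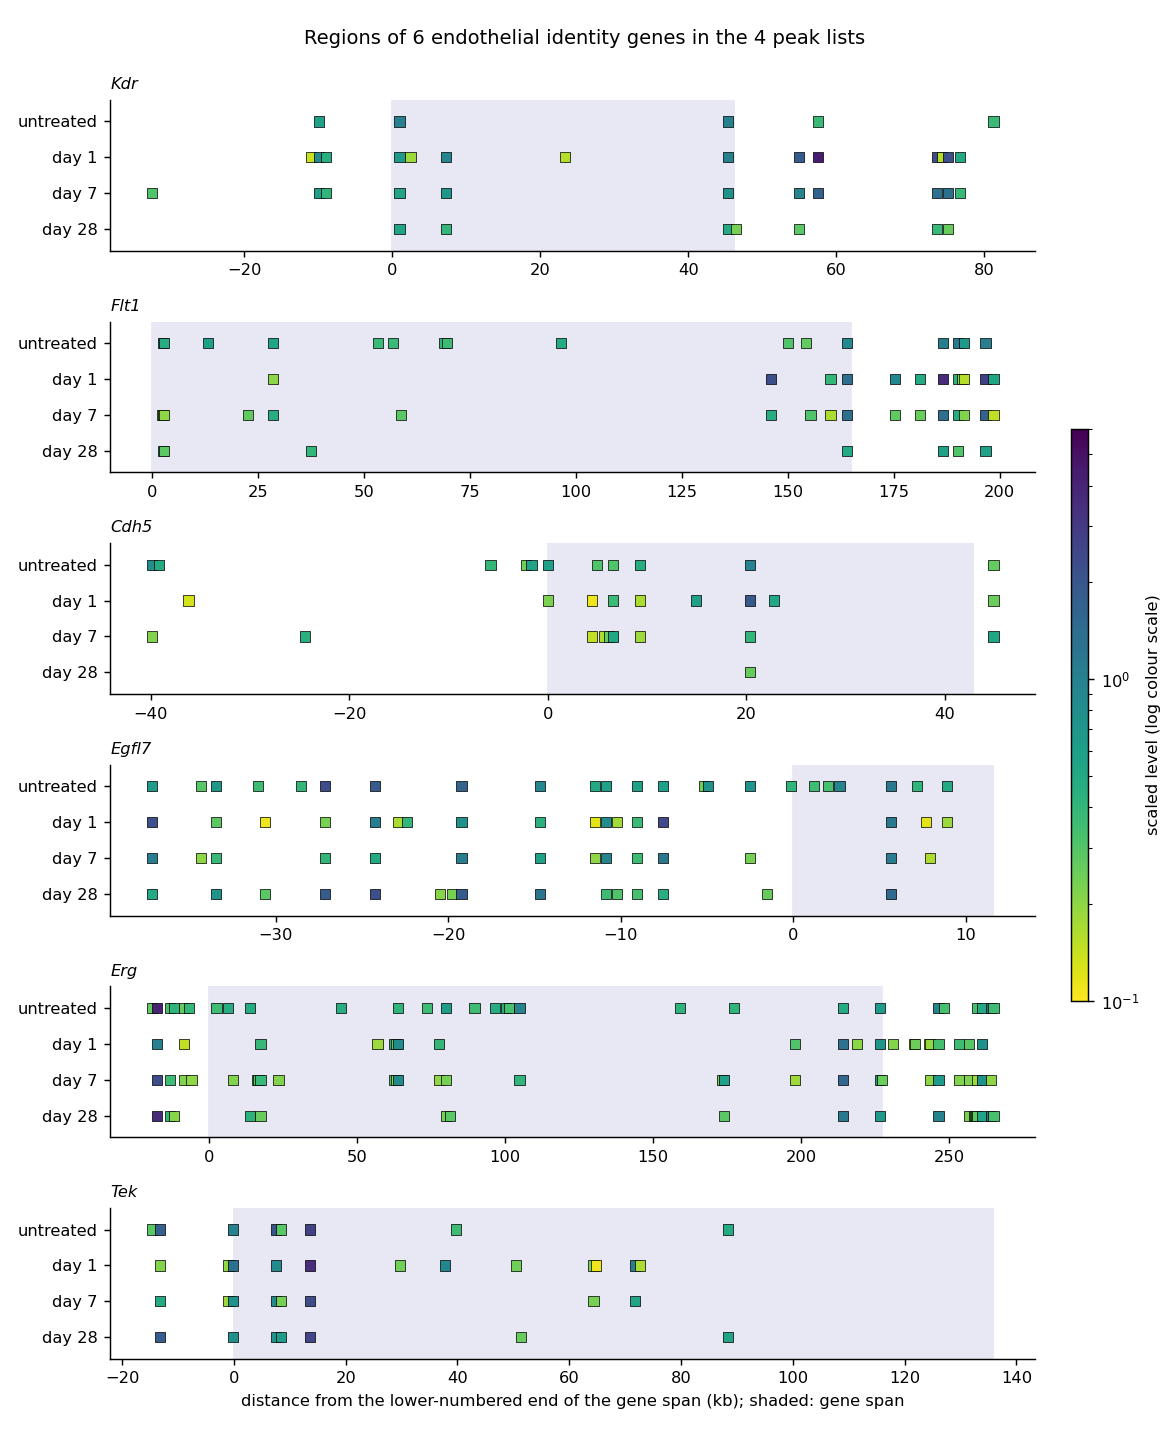
Positions of the regions of Kdr, Flt1, Cdh5, Egfl7, Erg and Tek (horizontal axis, kb from the lower-numbered end of the gene span, which is shaded) in the 4 lists, coloured by scaled level. The Cdh5 row of day 28 holds 1 region, and the Kdr rows of days 1 and 7 show dark regions right of the gene that the untreated row lacks.

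Tek, the angiopoietin receptor (chr4:94739086-94874976), kept its start region in all lists with levels of 1.00, 1.30, 0.733 and 0.778. Its strongest region, inside the gene at chr4:94752410-94753063, had 2.74, 3.57, 2.33 and 2.53. The gained region chr4:94810580-94811302 had 1.03 at day 1 and 0.538 at day 7. The strongest of its 3 regions lost at day 28 had a fold of only 3.62, so the strong Tek sites were those that stayed. Tie1, the orphan partner of Tek (chr4:118471191-118489849), had 5, 5, 5 and 2 regions. The start region had levels of 1.07, no peak, 0.289 and 0.284, and the region at chr4:118465655-118466234, 5349 bp beyond the gene, had 1.24, 2.69, 1.89 and 0.901. An upstream region at chr4:118500208-118500505 had 0.688 in the untreated list and 0.20 at day 7, and was absent at days 1 and 28.

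Eng (chr2:32646595-32682669), the TGF-beta co-receptor, differed from the other 9 genes by keeping 12 of 13 untreated regions at day 28. Its strongest region, chr2:32679977-32680708 inside the gene, had levels of 2.91, 8.32, 4.00 and 2.06, and its day 1 fold was 139. The 1 region lost at day 28, chr2:32671323-32671480, had a fold of 3.13 and was in the untreated list alone.

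Cdh5, the adhesion molecule of endothelial junctions (chr8:104101613-104144504), was left with a single region at day 28 within 50 kb, beside the region at 50618 bp that the rule left out. That region, chr8:104121629-104122314 inside the gene, had levels of 0.978, 1.95, 0.414 and 0.259. The region at the lower-numbered gene end, chr8:104101495-104101686, had 0.599 in the untreated list and 0.224 at day 1, and was absent at days 7 and 28. Away from the gene, chr8:104061168-104062286 was the strongest Cdh5 region lost at day 28, with 0.822 untreated and 0.218 at day 7. Cdh5 regions were therefore still present at days 1 and 7 (9 and 10), and 4 and 5 of these were gained.

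Pecam1 (chr11:106654213-106715281), an adhesion molecule that leukocytes and platelets also carry, had 21, 21, 23 and 16 regions. A region at its higher-numbered end, chr11:106715212-106715402, was in the untreated list alone at 4.12-fold. The strongest Pecam1 region, chr11:106659059-106660351 inside the gene, had levels of 3.78, 1.29, 1.50 and 3.54, lower at days 1 and 7 than in the untreated and day 28 lists. Its strongest region lost at day 28, chr11:106710411-106710672, was in the untreated list alone with 0.577.

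Emcn, the surface sialomucin endomucin (chr3:137341062-137431069), had 7, 6, 5 and 4 regions. The region nearest its start, chr3:137341132-137341354, was in the untreated list alone at 3.62-fold. The strongest, chr3:137346416-137346890, had levels of 1.96, no peak, 0.360 and 1.10, and so was absent at day 1 and present again afterwards. A region 38015 bp upstream, chr3:137302856-137303140, was among the 5 strongest gains of day 28 at 4.83-fold and was also present at days 1 and 7. The strongest lost at day 28, chr3:137419083-137419240, had 0.444 and was in no later list.

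Egfl7 (chr2:26581083-26592682) held 3 of the 5 strongest member regions lost at day 28. They were chr2:26583414-26584181 over the second start (0.933), chr2:26576015-26576317 upstream (0.755) and chr2:26578339-26578739 upstream (0.711). The first and second of these had no later peak, and the other was present at day 7 with 0.236. Stronger upstream regions stayed, such as chr2:26553494-26554294 at 27132 bp from the gene, with 2.36, 0.233, 0.396 and 1.84. The hairpin of Mir126a lies inside the gene at chr2:26591357-26591429 in the annotation.

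Erg (chr16:95359169-95586600) held the strongest member region lost at day 28. This site inside the gene, chr16:95463664-95464145, had 0.955 untreated and 0.414 at day 7, and no peak at days 1 and 28. A region near the upper end, which is the start on the minus strand, had 0.644, 0.697, 0.680 and 0.654 at chr16:95585419-95585894. The strongest Erg region lay 17585 bp beyond the gene at chr16:95340778-95342311 and had 4.07, 0.981, 2.37 and 3.62. Erg thus kept its start-proximal and its strongest region while 16 of its 28 untreated regions were lost at day 28. Of its 3 annotated starts, the window of the first held a region only at day 7 (4.84-fold), that of the second held none, and that of the third held a region only in the untreated list (4.45-fold).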

How the data were processed

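ATAC-seq of mouse pancreatic epithelium was used from 4 of the 7 samples, grouped by their titles, and each group is 1 library. MACS2 2.1.0.20150731, Bowtie2 2.2.6, deepTools, cutadapt and SAMtools, with GRCm38 (mm10) as the build, are listed per the submitters' processing notes. Their options, the read filters and any shift to the cut site are not stated there. The authors deposited 1 narrowPeak list per sample. The authors' fold enrichment is a ratio of summit pileup to background, and their −log10 p-value and −log10 q-value express the same enrichment. The deposited score equals 10 times the −log10 q, and the offset gives the summit.

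Depth was recovered as the background that makes pileups whole within 0.05, which it did for 100% of peaks. The backgrounds were 5.07, 5.35, 2.72 and 2.52 for untreated and days 1, 7 and 28, so the untreated and day 1 libraries were deeper. The lowest fold in the lists was 2.47, 2.36, 2.95 and 2.84. Regions on the 19 autosomes and X were linked by summit to the nearest protein-coding gene span of RefSeq GRCm38.p6 within 50 kb, with 0 tied member summits. The table of spans gives no strand or exons. Strand came from the RefSeq promoter table, which holds 12 starts of 8 members. For Cdh5 and Pecam1 positions are given by gene end.

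With 1 library per group no test was possible. Shares have exact (Clopper-Pearson) 95% intervals, and the limit for a count of 0 is 3 counts. Python 3.11.15, pandas 2.3.3, numpy 2.4.6 and scipy 1.17.1 were used. The steps were tested on simulated data, and bedtools 2.31.1 gave the same 37988 untreated regions lost at day 28.

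The members and the other 9 gene lists (endothelial transcription factors, endothelial receptor, junction and surface genes, ligands, lymphatic, mural, leukocyte, fibroblast, acinar, and duct and epithelial genes) were chosen with earlier results of these data known. Named regions were, for each gene, those at its start and its strongest untreated regions lost and kept at day 28, and over all members the 5 strongest lost and gained. A few further regions of Kdr and Flt1 were chosen after their values were seen, as were the single genes of the broader endothelial lists, Sox9, Krt19 and Pdpn. Of other lists, genes with at least 5 untreated regions of which all or none were lost at day 28 were named. The alternatives tried were stricter peaks, other overlaps, a 10 kb link, ties, a common enrichment floor and leaving out each gene.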

Additional observations from a re-analysis of the deposited data

How the results depend on the processing

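The number of untreated endothelial gene regions lost stayed within 1.5 times its value at each of the 3 times under each of 6 alternatives. Counting tied summits for each gene changed nothing, since there were 0 ties among the members. The share lost ran from 46.9% to 60.1% at day 1, 38.5% to 49.3% at day 7 and 44.6% to 57.4% at day 28, above the share over all linked regions in each of these settings. The genes were chosen by their day 28 losses, and the untreated regions scored at days 1 and 7 are the same ones. These settings therefore show only how the counts move and add no support. Leaving out each of the 10 genes in turn gave 51 to 71 lost at day 1, 43 to 59 at day 7 and 59 to 74 at day 28, with the lowest shares at days 1 and 7, 42.5% and 35.8%, without Erg. Gains moved more. With a 10 kb link, where fewer regions are linked, 43 of 87 regions were gained at day 1 (49.4% against 48.6% of all linked regions). At day 28 it was 13 of 63 (20.6% against 22.8%). A common enrichment floor left 34 of 88 gained at day 1 (38.6% against 39.1%). When the gained region needed a −log10 q of at least 5, 41 of 116 were gained at day 7 (35.3% against 28.8%) and 12 of 80 at day 28 (15% against 14.98%). With that limit on every peak 13 of 80 were gained at day 28 (16.25% against 18.5%). Requiring a summit of the other list gave 37 of 100 at day 28 (37% against 31.8%), and the cause was not tested. The share gained exceeded the background in 3 of 6 settings at day 1, 6 of 6 at day 7 and 3 of 6 at day 28. No paired analysis was possible because each group has 1 library, and for the same reason no library could be left out. The lists of days 7 and 28 come from shallower libraries, where a pileup of 10 and 9 fragments was the lowest called, so weaker regions may be missing there.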

Other observations

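Genes of the ligands that act on endothelial receptors had another course. Of their 90 untreated regions the lists of days 1, 7 and 28 lacked 45 (50%), 40 (44.4%) and 16 (17.8%). Over all linked regions the shares were 37.1%, 31.8% and 26.7%. The genes held 90, 84, 85 and 99 regions in the 4 lists. Vegfa, the ligand of Kdr and Flt1, accounted for 33, 25 and 9 of the ligand losses among its 44 untreated regions. Most of the ligand losses at each time thus came from 1 gene. Angpt1 and Angpt2, the ligands of Tek, had 4, 5 and 1 of 9 and 4, 2 and 1 of 10 lost, and Pgf, a ligand of Flt1, had 2, 6 and 3 of 17.

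The 5 lymphatic endothelial genes had 25, 44, 28 and 29 regions. At day 1, 30 of the 44 were gained, 68.2% against 49.9% of all linked regions. Of these gains 23, among 29 regions, belonged to Pdpn, the gene of podoplanin. Prox1 had 3 of 9 regions gained, Lyve1 1 of 2 and Reln 3 of 4. The share was not particular to the lymphatic list, since the 7 fibroblast genes had 114 of 164 regions gained at day 1 (69.5%). Of the 25 untreated regions of the lymphatic genes 8 (32%), 5 (20%) and 4 (16%) were lost at the 3 later times, against 37.1%, 31.8% and 26.7% of all linked regions. Ccl21a, a chemokine of lymphatic vessels, had no region in any list.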
